A study of Mus musculus with 90 samples.

Results

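Untreated YUMM2.1 cultures harvested after 3 weeks were compared with untreated cultures of the same line harvested at the start, to measure how far gene expression moved in cells that received no IFNγ. YUMM2.1 is a mouse melanoma line. The comparison rests on 6 of the 90 libraries of the series, 3 at 0 weeks and 3 at 3 weeks, picked by the labels alone, and the changed genes were then followed through 3 control libraries at 1 week and 3 at 2 weeks. The series as a whole asked how short and long exposure to IFNγ alters the transcriptome of YUMM2.1 and of CT26, a mouse colon carcinoma line, and holds 15 groups of 3 libraries for each line. Apart from the 4 control groups, YUMM2.1 cells were given IFNγ at 50 IU/mL for 2 h or 24 h at 0 weeks, or continuously for 1, 2 or 3 weeks and then harvested as they were or 2 h or 24 h after fresh IFNγ. All cultures shared the same serum-supplemented RPMI medium and were replated before the final harvest. The labels give no passage number and call the 3 libraries of a group triplicate experiments. They do not say whether parallel cultures were kept apart over the weeks. Within YUMM2.1, p-values therefore measure only the spread between libraries of a group, estimated over all 45 YUMM2.1 libraries fitted together.

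Tumour cell lines are propagated by repeated passage, and the population that is harvested weeks later need not express the same genes as the one that was seeded. Among the genes known to follow growth conditions in cultured mouse cells are the proliferins, secreted members of the prolactin family that serum growth factors induce. Melanoma cells in addition differ in how much of the pigment cell program they keep, from cells rich in melanosomal proteins to dedifferentiated cells rich in matrix proteins such as fibronectin.

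RNA was counted by 3′ digital gene expression, in which each transcript is read from its 3′ end. Levels are given as CPM, counts scaled by library totals that had been adjusted with the TMM factors of edgeR. Total counts were 1867497, 812316 and 1613228 in replicates 1, 2 and 3 at 0 weeks and 2354083, 2663541 and 3047691 at 3 weeks. Every library at 3 weeks was therefore deeper than every library at 0 weeks, and the libraries at 1 week (2309928 to 3161276) were as deep as those at 3 weeks, whereas those at 2 weeks (994733 to 1270700) were as shallow as those at 0 weeks. Mitochondrially encoded transcripts took 5.16 to 6.32% of counts at 0 weeks and 5.62 to 5.83% at 3 weeks, and cytosolic ribosomal protein transcripts 10.9 to 12.8% and 12.9% in all 3 libraries at 3 weeks. Of the defining pigment cell markers, Sox10, a lineage transcription factor, lay between 12.03 and 31.71 CPM in the 12 control libraries, while Mitf did not exceed 3.58 CPM, Dct 4.04, Pmel 1.93 and Tyr 1.72, and Tyrp1 and Mlana had 0 counts in all 12. The pigment enzymes that define a melanocyte were thus at or near 0 in these cells at every week. Among markers of other cell types, Ptprc had at most 1 count in any control library and Cd3e, Adgre1, Cd74, Epcam, Cdh1, Kdr and Dpt had 0. None of the 12 keratinocyte and epithelial markers was expressed enough to be tested. Of the 8 endothelial markers only Pecam1 was, at 308.9 to 440 CPM in the control libraries (log2 fold change 0.09 from 0 to 3 weeks), while Cdh5 had at most 1 count and Kdr, Tek and Cldn5 had 0.

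The promoters of 3 genes that were higher at 3 weeks are shown: Prl2c3 and Prl2c5, because they belong to copies so alike that reads are hard to assign, and Gpnmb, the pigment cell gene among the increases. Prl2c2 is named only. They are the windows from 250 bases before to 50 bases after the annotated start in RefSeq, on GRCm38.p6, written 5′ to 3′ on the strand of the gene. Capitals mark matches on either strand to TGANTCA, the AP-1 element, CACGTG or CATGTG, E-boxes bound by MITF and related factors, and TTCNNNGAA, the STAT element.
Prl2c3, chr13:12800030-12800329, minus strand: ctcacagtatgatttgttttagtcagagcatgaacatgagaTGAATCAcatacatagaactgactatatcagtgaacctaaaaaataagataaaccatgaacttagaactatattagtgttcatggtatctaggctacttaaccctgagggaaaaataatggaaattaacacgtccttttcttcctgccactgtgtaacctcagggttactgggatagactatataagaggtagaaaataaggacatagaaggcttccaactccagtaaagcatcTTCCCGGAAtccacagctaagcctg
Prl2c5, chr13:13182466-13182765, plus strand: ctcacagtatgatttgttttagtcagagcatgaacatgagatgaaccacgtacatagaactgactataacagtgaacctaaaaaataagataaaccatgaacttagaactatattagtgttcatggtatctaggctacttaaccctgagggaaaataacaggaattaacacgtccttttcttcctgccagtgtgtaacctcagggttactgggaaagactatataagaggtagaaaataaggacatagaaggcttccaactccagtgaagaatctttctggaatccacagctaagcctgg
Gpnmb, chr6:49036268-49036567, plus strand: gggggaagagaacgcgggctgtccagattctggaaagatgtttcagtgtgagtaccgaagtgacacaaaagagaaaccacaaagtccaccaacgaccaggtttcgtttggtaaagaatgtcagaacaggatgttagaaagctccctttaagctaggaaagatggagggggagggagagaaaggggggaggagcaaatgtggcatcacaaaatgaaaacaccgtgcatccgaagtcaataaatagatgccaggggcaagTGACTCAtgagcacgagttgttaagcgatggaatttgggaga
The Prl2c3 and Prl2c5 windows were identical at 287 of 301 aligned positions (95.3%), with 12 mismatches and 2 gap bases. Prl2c3 held 1 AP-1 match at position 42 and 1 STAT match at position 276, counted from the 5′ end, and the Prl2c5 window held none of the 4 motifs. Gpnmb held 1 AP-1 match at position 259 and neither E-box. Over all 32851 windows of this length, 7.81% held TGANTCA, 7.15% CACGTG, 14.2% CATGTG and 8.30% TTCNNNGAA. A window was found for 15 of the genes higher at 3 weeks and 15 of the lower genes. TGANTCA was in 3 of the higher and 2 of the lower genes, CACGTG in 2 and 4, CATGTG in 4 and 2, and TTCNNNGAA in 2 and 2. A gene was counted if any of its windows matched, so these counts are per gene and the percentages per window.

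Few genes were called as changed over the 3 weeks. Of 9589 genes tested, 50 passed an adjusted p of 0.05 in edgeR's quasi-likelihood test (0.521%), 24 of them higher (0.25%) and 26 lower (0.271%) at 3 weeks. Median log2 fold changes were 0.80 over the higher genes and −0.70 over the lower genes, against 0.03 over all genes tested, and 11 of the 50 changed by at least 1 on the log2 scale, 8 of them higher. The 3 libraries at 3 weeks lay outside the range of the 3 at 0 weeks for each of the 50, as they did for 10.7% of all tested genes above and 8.06% below that range. An unadjusted p under 0.05 was found in edgeR for 799 genes (8.33%). In simulated data for this comparison, 41.4% of changes of 1 on the log2 scale were called. With library totals as the only scaling, 107 genes passed, 33 higher and 74 lower. DESeq2 called 109 genes and an edgeR fit of the compared groups alone 120. Without replicate 3 or 2 of 3 weeks, the count of 50 fell to 14 and 26. Without replicate 2 or 3 of 0 weeks, it fell to 19 and 21. A set of 12 genes kept the call in the comparisons that left out any 1 of the 6 libraries, in the 5 other tools, scalings, filters and fits, and with the log2 total count as a covariate: Prl2c2, Prl2c3, Ybx1, Gpnmb, Lgals3 and Cst6 among the higher genes, and Fn1, Synrg, Casc4, Cflar, Gm38299 and Gm42432 among the lower ones. When each replicate number was also left out of both groups at once, 7 of the 12 remained, without Cst6, Casc4, Cflar, Gm38299 and Gm42432.

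**Figure D1:**
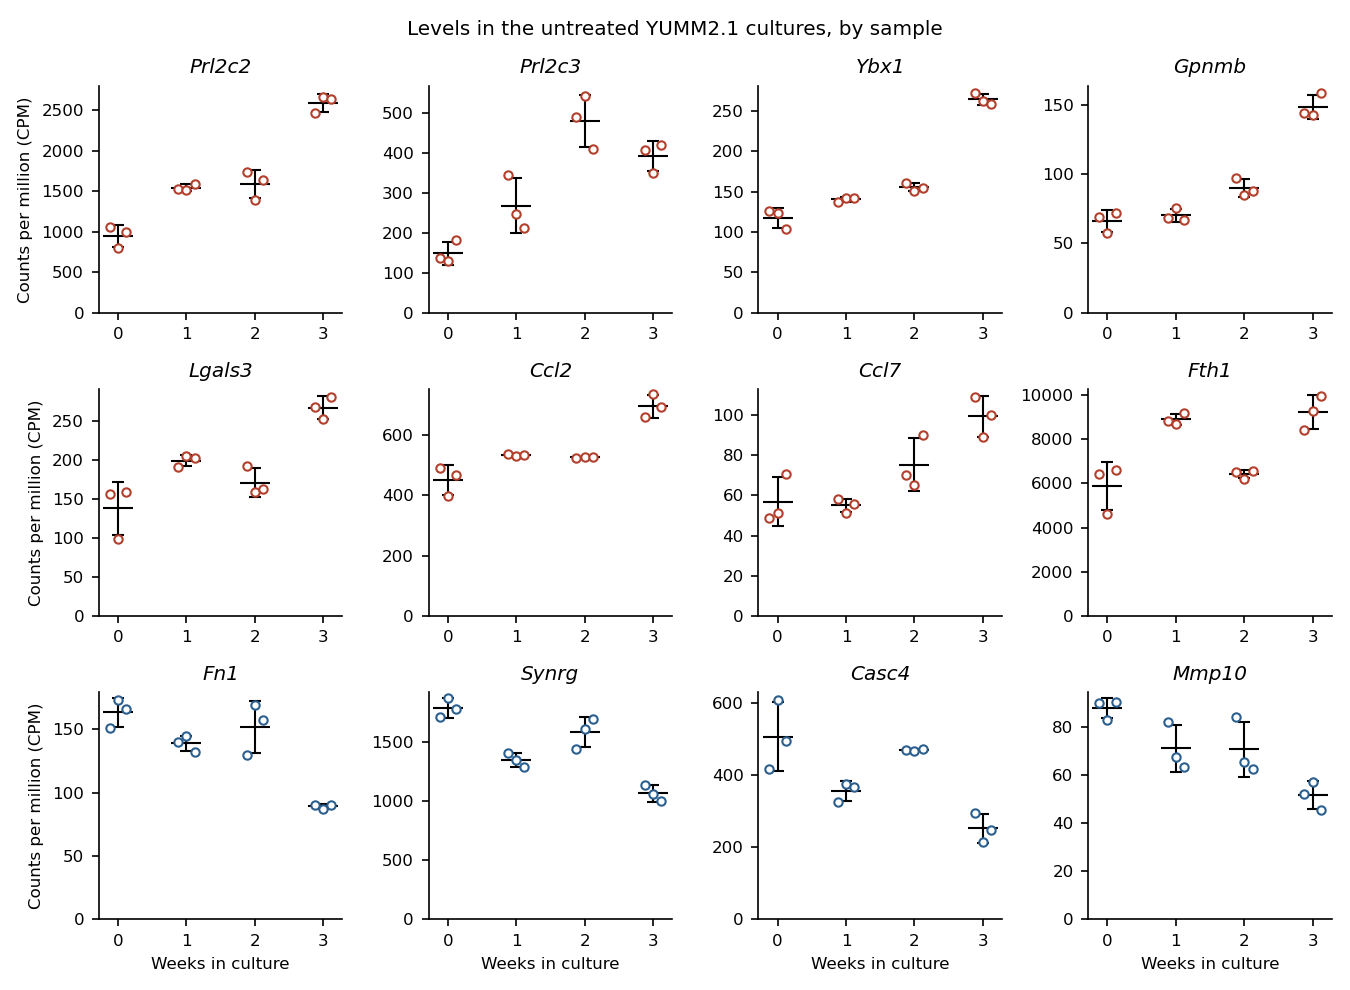
Level of 12 genes in each untreated YUMM2.1 library (vertical axis, CPM, from 0) against weeks in culture (horizontal axis). Open points are the 3 libraries of a group, bars the mean ± SD; the 8 genes in red were higher and the 4 in blue lower at 3 weeks, as with Prl2c2 at 792 to 1053 CPM at 0 weeks and 2467 to 2669 CPM at 3 weeks.

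The proliferins rose the most among well-covered genes. Prl2c2 (chr13:12996125-13005383) measured 1053, 792 and 996 CPM at 0 weeks and 2467, 2669 and 2644 CPM at 3 weeks. The 3 late libraries were close to each other and far above all early ones. The log2 fold change was 1.45 ± 0.15 (SE; edgeR adjusted p = 8.6e-09). Prl2c3 (chr13:12790816-12800079) measured 136, 128 and 182 CPM at 0 weeks and 407, 351 and 420 CPM at 3 weeks. It was 1.39 ± 0.19 higher on the log2 scale (edgeR adjusted p = 7.0e-06), again without overlap. Prl2c5 (chr13:13182715-13191923) was far less covered, with 6.00, 2.44 and 6.44 CPM at 0 weeks against 22.6, 19.5 and 23.8 CPM at 3 weeks, a log2 fold change of 2.02 ± 0.40 (edgeR adjusted p = 0.0058). Its call was lost without replicate 2 of 0 weeks or replicate 3 of 3 weeks, with an adjusted p of up to 0.07. The 3 genes lie within the same stretch of chromosome 13, and 89.3%, 69.4% and 44.0% of the 31-base words in the last 500 bases of their transcripts also occurred in other genes. How reads were divided between these copies is therefore uncertain, and the separate values of the 3 genes carry that limit.

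Ybx1, Gpnmb and Psip1 each rose by more than 1 on the log2 scale. Ybx1 (chr4:119277981-119294604), a cold-shock domain protein that binds RNA and DNA, measured 126, 123 and 104 CPM at 0 weeks and 273, 262 and 259 CPM at 3 weeks. The groups did not overlap and the late libraries varied little, and the log2 fold change was 1.17 ± 0.15 (edgeR adjusted p = 4.1e-06). Gpnmb (chr6:49036546-49070929), a transmembrane glycoprotein of melanosomes and lysosomes, measured 69.3, 57.4 and 72.1 CPM at 0 weeks and 144, 143 and 159 CPM at 3 weeks. It was 1.15 ± 0.15 higher on the log2 scale (edgeR adjusted p = 4.1e-06). Psip1, a chromatin-bound coactivator, was more variable at the start, at 22.4, 39.1 and 16.1 CPM against 52.4, 54.6 and 49.3 CPM at 3 weeks. Its log2 fold change was 1.10 ± 0.25 (edgeR adjusted p = 0.021), and the call held only without replicate 2 of 0 weeks among the 6 leave-outs, the adjusted p reaching 0.32 in the others.

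Lgals3 and Lgals7, galectins that bind galactose-containing sugars, were among the higher genes, while the galectins Lgals1, Lgals8 and Lgals9 were not called, with log2 fold changes of 0.22, 0.39 and 0.35 (edgeR adjusted p = 0.60, 0.74 and 0.86). Lgals3 (chr14:47367751-47386160) measured 157, 98.9 and 158 CPM at 0 weeks and 268, 252 and 281 CPM at 3 weeks, a log2 fold change of 0.93 ± 0.15 (edgeR adjusted p = 0.00015). Lgals7 measured 20.2, 36.6 and 27.7 CPM at 0 weeks and 56.4, 56.5 and 50.0 CPM at 3 weeks, a log2 fold change of 1.00 ± 0.21 (edgeR adjusted p = 0.011). Replicate 2 of 0 weeks was the lowest of its group for Lgals3 and the highest for Lgals7, and the late libraries lay above it in both. The Lgals7 call was lost without replicate 1 or 2 of 3 weeks or replicate 1 or 3 of 0 weeks, with an adjusted p of up to 0.18. Cst6, a secreted inhibitor of cysteine proteases, measured 85.7, 97.7 and 97.8 CPM at 0 weeks and 153, 168 and 168 CPM at 3 weeks (log2 fold change 0.80 ± 0.14, edgeR adjusted p = 0.00059).

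The chemokines Ccl2 and Ccl7, which attract monocytes and are neighbours on chromosome 11, rose in the same libraries. Ccl2 (chr11:82035571-82037453) measured 492, 397 and 467 CPM at 0 weeks and 658, 735 and 694 CPM at 3 weeks. Ccl7 (chr11:82045712-82047525) measured 48.6, 51.3 and 70.8 CPM at 0 weeks and 109, 88.9 and 100 CPM at 3 weeks. Neither gene's groups overlapped, and the log2 fold changes were 0.62 ± 0.13 and 0.80 ± 0.17 (edgeR adjusted p = 0.0089 and 0.013). Each call was lost in 4 of the 6 leave-outs, for Ccl2 without replicates 2 or 3 of either time and for Ccl7 without replicate 1 of either time, replicate 3 of 3 weeks or replicate 2 of 0 weeks, with an adjusted p of up to 0.17 and 0.18. Of the 12 tested genes of the list of NF-kB and inflammatory mediators, these 2 rose and none fell, against 0.25% of all genes rising, and the median over the list was 0.51. In that list 4 of the 12 genes had an unadjusted p under 0.05, against 8.33% of all genes. The 14 leukocyte markers summed to 4.91 to 9.77 CPM at 0 weeks and 10.5 to 20.9 CPM at 3 weeks, and only Cd68 was expressed enough to be tested (log2 fold change 1.53, edgeR adjusted p = 0.27). Of the 14, 8 had 0 counts in all 12 control libraries, while Ptprc, Csf1r and Itgam had at most 1 count in any of them, Lyz2 at most 6 and Fcer1g at most 8. With fresh IFNγ, Cd68 was higher at 3 weeks by 1.75 on the log2 scale (edgeR adjusted p = 0.0077). The part of these markers in the chemokine levels was not tested.

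Fth1, Mt1 and Sat1 were also higher at 3 weeks. Fth1, the ferritin heavy chain that stores iron, measured 6418, 4623 and 6615 CPM at 0 weeks and 8436, 9302 and 9965 CPM at 3 weeks, a log2 fold change of 0.65 ± 0.14 (edgeR adjusted p = 0.011). Mt1, a metallothionein that binds zinc and copper, measured 863, 785 and 913 CPM at 0 weeks and 1196, 1153 and 1245 CPM at 3 weeks, a log2 fold change of 0.49 ± 0.10 (edgeR adjusted p = 0.0089). Sat1, which acetylates spermidine and spermine, rose from 45.8, 58.6 and 45.1 CPM to 99.4, 83.4 and 101 CPM, a log2 fold change of 0.95 ± 0.19 (edgeR adjusted p = 0.0047). No library at 3 weeks reached down to the range at 0 weeks in any of the 3 genes. All 3 calls depended on the libraries compared: Fth1 lost its call without replicate 2 or 3 of 3 weeks or replicate 2 of 0 weeks (adjusted p up to 0.32), Mt1 without replicate 1 or 3 of 3 weeks or replicate 1 or 2 of 0 weeks (up to 0.17), and Sat1 without replicate 3 of either time or replicate 1 of 0 weeks (up to 0.068). Within the list of heat shock and oxidative stress genes, Fth1 and Mt1 rose of 25 tested and none fell, against 0.25% of all genes rising, and 3 of the 25 had an unadjusted p under 0.05. Ftl1, the ferritin light chain, had a log2 fold change of 0.32 and did not pass (edgeR adjusted p = 0.24).

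The other higher genes were smaller in size or thinly covered. Atp13a4, a cation-transporting ATPase, had 0 counts in the 3 libraries at 0 weeks and 41 counts over the 3 at 3 weeks (7.55, 3.12 and 5.52 CPM), at least 7.45-fold higher when the start is set to a floor of 3 counts over the group. Genes of lipid and energy metabolism among them were Fabp5, a fatty acid carrier (log2 fold change 0.64), Acadl, an acyl-CoA dehydrogenase (0.77), Acot13, a thioesterase (0.58), and Atp5g3, subunit c of ATP synthase (0.48). Their edgeR adjusted p-values lay between 0.014 and 0.05, and Acadl, Acot13 and Atp5g3 lost the call in all 6 leave-outs, with values from 0.053 to 0.38. Tsc22d1, a leucine zipper protein, rose by 0.53 on the log2 scale, from a mean of 521 ± 24.1 CPM (SD, n = 3) to 754 ± 4.98 CPM, and it too lost the call in all 6. The remaining 4 were Tmem179, 1110008P14Rik and the noncoding Gm12222 and Gm10076.

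Fibronectin was the lower gene with the smallest adjusted p. Fn1 (chr1:71585520-71653200), the extracellular matrix glycoprotein that melanoma cells bind through integrins, measured 151, 173 and 166 CPM at 0 weeks and 90.5, 86.9 and 90.3 CPM at 3 weeks. The late libraries differed from each other by less than the early ones and none overlapped, and the log2 fold change was −0.87 ± 0.12 (edgeR adjusted p = 8.5e-06). Mmp10, a secreted protease that degrades matrix, measured 90.0, 83.0 and 90.7 CPM at 0 weeks and 52.4, 57.3 and 45.5 CPM at 3 weeks, a log2 fold change of −0.77 ± 0.18 (edgeR adjusted p = 0.03), and its call held only without replicate 2 of 3 weeks among the 6 leave-outs, the adjusted p reaching 0.21 in the others. No collagen or other matrix gene of the fixed list was called. Log2 fold changes of the 24 tested ran from −0.84 for Mmp3 to 1.13 for Col1a2 (edgeR adjusted p = 0.64 and 0.28). In edgeR 3 of the 24 had an unadjusted p under 0.05, against 8.33% of all genes. Col1a2 and Col3a1, the 2 tested fibroblast markers, were the main part of a marker sum of 66.3 to 79.7 CPM at 0 weeks and 106 to 112 CPM at 3 weeks, and the defining fibroblast markers Pdgfra, Dcn, Lum and Thy1 did not exceed 1.35 CPM in any control library. With fresh IFNγ, Col1a2 and Col3a1 were higher at 3 weeks by 1.07 and 0.65 on the log2 scale (edgeR adjusted p = 0.012 and 0.0031).

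Several lower genes encode parts of membrane traffic. Synrg (chr11:83964428-84044578), which binds the clathrin adaptor of the trans-Golgi, measured 1714, 1881 and 1788 CPM at 0 weeks and 1142, 1060 and 1002 CPM at 3 weeks. Casc4 (chr2:121866970-121936220), a Golgi membrane protein, measured 417, 610 and 496 CPM at 0 weeks and 295, 214 and 248 CPM at 3 weeks. Both fell without overlap, by 0.75 ± 0.12 and 1.00 ± 0.17 on the log2 scale (edgeR adjusted p = 0.00026 and 0.00061). Rep15, an effector of Rab15, Unc13d, which primes vesicles for release, Snf8, of the endosomal sorting machinery, and Washc4, of the WASH complex on endosomes, fell by 0.65, 0.49, 0.50 and 0.41 (edgeR adjusted p from 0.0036 to 0.048). These genes belong to none of the gene lists used here, and no test was made of whether membrane traffic is over-represented. Words of 31 bases found in 10 or more genes made up 21.1% of the 3′ end in Rep15. They made up 5.64% in Snf8, 3.73% in Unc13d and 3.15% in Washc4, and were present in Casc4 but not in Synrg. Whether reads from such sequence entered the counts was not tested. Rep15 lost its call only without replicate 3 of 0 weeks (adjusted p = 0.0501), Unc13d and Snf8 without replicates 2 or 3 of either time (up to 0.085 and 0.17), and Washc4 in all 6 leave-outs (0.078 to 0.19).

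Signalling and immune genes made up another part of the lower genes. Cflar (chr1:58711508-58758884), the inhibitor of caspase-8 activation at death receptors, measured 1220, 1456 and 1437 CPM at 0 weeks and 984, 919 and 863 CPM at 3 weeks, a log2 fold change of −0.57 ± 0.11 (edgeR adjusted p = 0.0026). Slfn5, a schlafen family member, measured 1148, 1575 and 1348 CPM against 959, 899 and 865 CPM, a log2 fold change of −0.58 ± 0.12 (edgeR adjusted p = 0.011). Cxcr2, a chemokine receptor, measured 382, 436 and 533 CPM against 316, 260 and 286 CPM, a log2 fold change of −0.65 ± 0.15 (edgeR adjusted p = 0.024). Of the 31-base words of the Cxcr2 3′ end, 3.19% occurred in 10 or more genes, against 0% for Cflar and Slfn5. Whether reads from such sequence entered the Cxcr2 counts was not tested. Groups did not overlap in any of the 3. Slfn5 lost its call without replicate 2 of 0 weeks or replicate 3 of 3 weeks (adjusted p up to 0.14), and Cxcr2 without replicates 2 or 3 of either time (up to 0.27). The lower gene with the largest log2 fold change, Ppip5k1, an inositol pyrophosphate kinase, varied most at the start, at 154, 287 and 217 CPM against 108, 101 and 79.6 CPM at 3 weeks (−1.17 ± 0.26, edgeR adjusted p = 0.017), and lost its call without replicates 2 or 3 of either time (up to 0.20). The others included Pcgf2, a Polycomb subunit, Brms1l, of the Sin3 deacetylase complex, Exosc2, of the RNA exosome, Nmrk1, a nicotinamide riboside kinase, and the tetraspanin Tspan33, with log2 fold changes from −0.80 to −0.47.

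Lower genes shared a feature of their 3′ ends that higher genes did not show to the same degree. At least 1 of the 31-base words in the last 500 bases of the transcripts occurred in 10 or more genes for 17 of the 26 lower genes (65.4%), for 3 of the 24 higher genes (12.5%) and for 27.0% of all tested genes. The word found in the most genes was shared by 371 genes in Casc4, Rep15, Snf8, Exosc2 and Gm48610, by 319 in Fn1 and Unc13d, and by 1365 in Nmrk1, but by 5 in Synrg and by 8 in Cflar. Words found in 10 or more genes made up 1.94% of all words of the 3′ end in Fn1, 5.55% in Casc4 and 21.1% in Rep15. Noncoding genes made up 7 of the 26 lower genes (26.9%) and 2 of the 24 higher genes (8.33%), against 7.22% of all genes tested; of these Gm48610 measured 944, 1283 and 1084 CPM at 0 weeks and 634, 552 and 564 CPM at 3 weeks. Whether reads from repeated sequence entered the counts of these genes was not tested.

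Through the intermediate weeks, higher and lower genes followed different courses. All comparisons with 0 weeks share the same 3 starting libraries, so their values are given side by side and not as separate support. At 1 week 7 genes differed from the start (0.073%): Prl2c2, Txn1, Cox8a, Coq6 and Ecd were higher, and Usp40 and Gm42432 lower. At 2 weeks 2 genes did (0.0209%), Prl2c2 and Prl2c3. The median over the 24 higher genes was 0.37 at 1 week, 0.38 at 2 weeks and 0.80 at 3 weeks. The median over the 26 lower genes was −0.38 at 1 week, −0.15 at 2 weeks and −0.70 at 3 weeks, so that their level at 2 weeks lay closer to the start than it did at 1 week. The course of Gm48610 was the clearest of this kind, whose log2 fold change against the start was −0.86 after 1 week, 0.04 after 2 and −0.92 after 3.

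**Figure D2:**
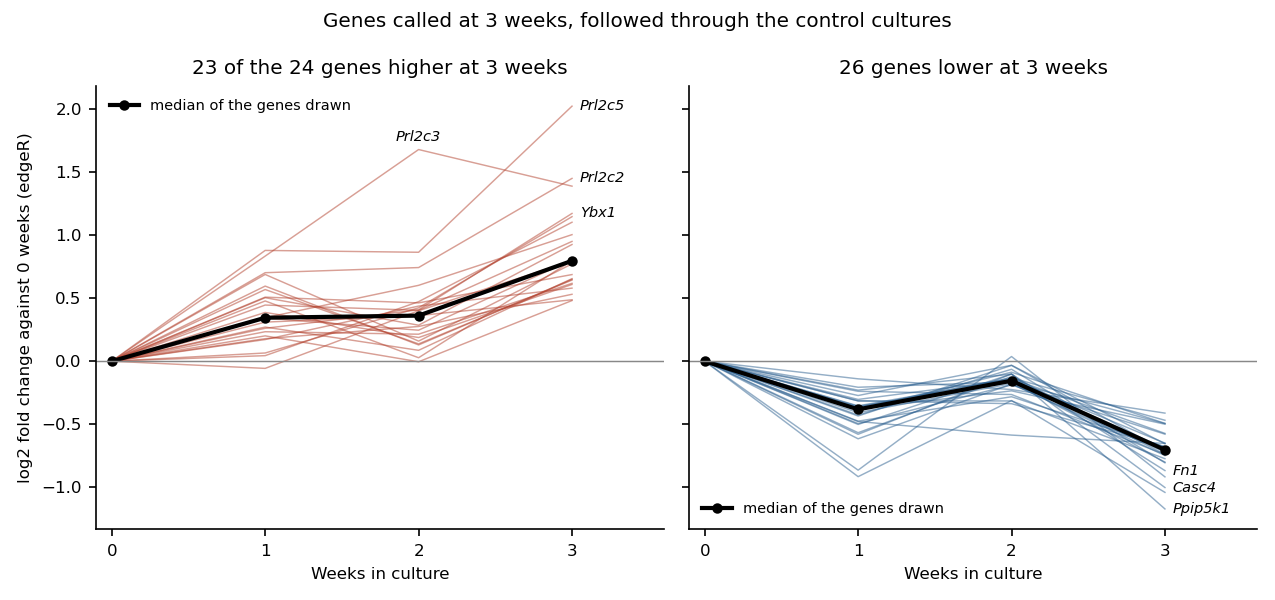
Fitted log2 fold change against 0 weeks (vertical axis) at 1, 2 and 3 weeks (horizontal axis) for the genes called at 3 weeks, with thin lines for single genes and a thick line for their median. Atp13a4, with 0 counts at the start, is left out of the left panel; the 26 lower genes in the right panel run from a median of −0.38 at 1 week to −0.15 at 2 weeks and −0.70 at 3 weeks.

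Single genes took different routes to their level at 3 weeks. Prl2c2 measured 1530, 1509 and 1594 CPM at 1 week and 1738, 1393 and 1633 CPM at 2 weeks, between its levels at 0 and 3 weeks (log2 fold changes against the start 0.70 and 0.74, edgeR adjusted p = 0.029 and 0.034). Prl2c3 was highest at 2 weeks, with 489, 542 and 411 CPM (log2 fold change 1.68, edgeR adjusted p = 2.7e-07). Between weeks 2 and 3 its log2 fold change was −0.29 (edgeR adjusted p = 0.73), so no further change was detected. Ybx1 stood at 137, 142 and 143 CPM at 1 week and 161, 151 and 155 CPM at 2 weeks, and Gpnmb at 68.1, 75.9 and 66.7 CPM and at 97.03, 84.8 and 87.6 CPM. In both genes most of the difference came in the third week.

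The third week on its own gave 10 changed genes (0.104%). This comparison does not use the starting libraries. Like the comparison with 1 week below, it shares the 3 libraries at 3 weeks with the one that chose the 50 genes. That favours calls among the 50, and 8 of the 10 were among them. Prl2c2, Ybx1 and Gpnmb were higher at 3 weeks than at 2 weeks by 0.71, 0.76 and 0.72 on the log2 scale (edgeR adjusted p = 0.019, 0.018 and 0.019). Fn1 was lower by 0.76 (edgeR adjusted p = 0.00053), after 129, 170 and 157 CPM at 2 weeks, and Synrg, Casc4, Rep15, Gm48610, Tnnt2 and Dock10 were lower too. The edgeR count was 0 without replicate 2 of both groups, with 496 genes at an unadjusted p under 0.05, and 1 without replicate 3 of both. Against 1 week, where the libraries were of the same depth as at 3 weeks, 8 genes differed (0.0834%) in a comparison added after the data had been seen: Prl2c2, Ybx1, Gpnmb, Psip1 and Ccl7 were higher and Fn1, Tnnt2 and Timp1 lower. A linear trend over the 4 control groups was called for 24 genes (0.25%), 16 rising and 8 falling, all of them among the 50. The trend gives most weight to the libraries at 0 and 3 weeks, on which the 50 were chosen. This overlap was therefore close to fixed in advance. Slopes were 0.44 per week on the log2 scale for Prl2c2, 0.50 for Prl2c3, 0.38 for Gpnmb, 0.37 for Ybx1 and −0.25 for Fn1 (edgeR adjusted p from 2.8e-08 to 9.1e-05).

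Some genes stood highest at 1 week. Txn1, thioredoxin, a thiol reductase, measured 951, 664 and 1297 CPM at 0 weeks, 1897, 2240 and 3526 CPM at 1 week, 911, 788 and 847 CPM at 2 weeks and 1003, 1264 and 1390 CPM at 3 weeks. Cox8a, a subunit of cytochrome c oxidase, measured 520, 363 and 573 CPM at 0 weeks, 810, 825 and 1181 CPM at 1 week and 619, 744 and 789 CPM at 3 weeks. The libraries at 1 week were above all others for both genes, and replicate 3 of 1 week was the highest of all. At 3 weeks the log2 fold changes were 0.32 and 0.56 (edgeR adjusted p = 0.84 and 0.33). Ecd and Coq6 had means of 51.2 and 20.3 CPM at 0 weeks, 132 and 67.1 CPM at 1 week, 51.5 and 22.2 CPM at 2 weeks and 77.1 and 38.2 CPM at 3 weeks. The edgeR count of changed genes at 1 week was 0 whichever replicate number was left out, with 423 to 750 genes at an unadjusted p under 0.05.

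Depth moved with these patterns. Summed over the 26 lower genes, the level was 13792 to 16173 CPM at 0 weeks, 11356 to 11956 CPM at 1 week, 13064 to 14192 CPM at 2 weeks and 9552 to 10424 CPM at 3 weeks. Summed over the 24 higher genes, it was 9199 to 12215 CPM, 15484 to 16171 CPM, 12756 to 13806 CPM and 17729 to 19589 CPM. Both sums at 1 and 2 weeks were thus ordered as total counts were. The libraries at 3 weeks, of like depth to those at 1 week, lay beyond them in both sums. The genes were chosen on the libraries at 0 and 3 weeks, which favours that order. It therefore does not tell depth and week apart. With the log2 total count as a covariate, an alternative added after the data had been seen, 23 genes passed, and 21 of the 50 were among them, 12 higher and 9 lower. Median log2 fold changes over the 24 and the 26 were then 0.74 and −0.68. The fitted slope on depth was positive for 22 of the 24 higher genes and negative for 21 of the 26 lower genes, and passed the test for 5 and 1 of them. Over all 9589 genes it was positive for 4946, negative for 4643 and passed for 317.

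**Figure D3:**
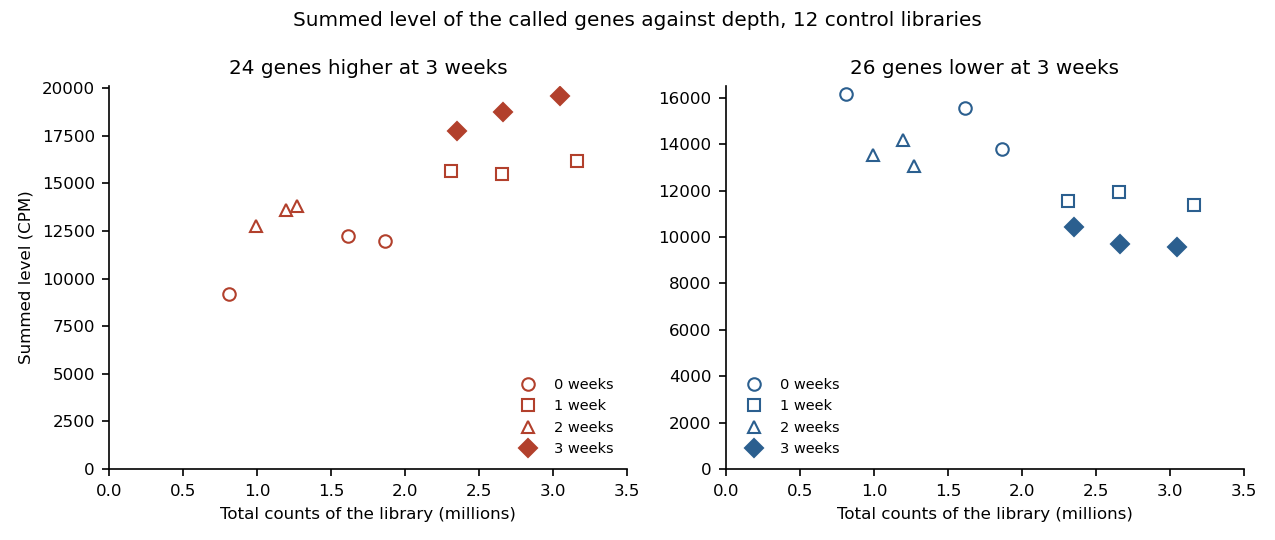
Summed level of the called genes (vertical axis, CPM, from 0) against the total counts of the library (horizontal axis, scaled as labelled) in the 12 control libraries of YUMM2.1, with one symbol for each week. The 3 libraries at 3 weeks (filled) lie at 17729 CPM or above for the higher genes and at 10424 CPM or below for the lower genes, with the libraries at 1 week at a similar depth between them and the start.

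The called genes were then read in 12 other YUMM2.1 libraries with the same 3 weeks between them, in which cells had received fresh IFNγ 2 h or 24 h before harvest, at 0 weeks or at 3 weeks. None of these libraries was in the control contrast, although they were part of the same fit and so of its estimate of spread. The cells at 3 weeks had also been kept in IFNγ, so time and IFNγ cannot be told apart here. Of all tested genes, 6.26% changed in this contrast, 3.08% higher and 3.18% lower. Of the 24 genes higher in controls, 12 were higher here as well and none was lower. Of the 26 genes lower in controls, 18 were lower here as well and none was higher. The median log2 fold change was 0.33 over the first set, −0.41 over the second and 0.03 over all tested genes. Depth did not separate these groups as in the controls, with 857804 to 2370771 counts at 0 weeks and 1140154 to 1625445 at 3 weeks.

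**Figure D4:**
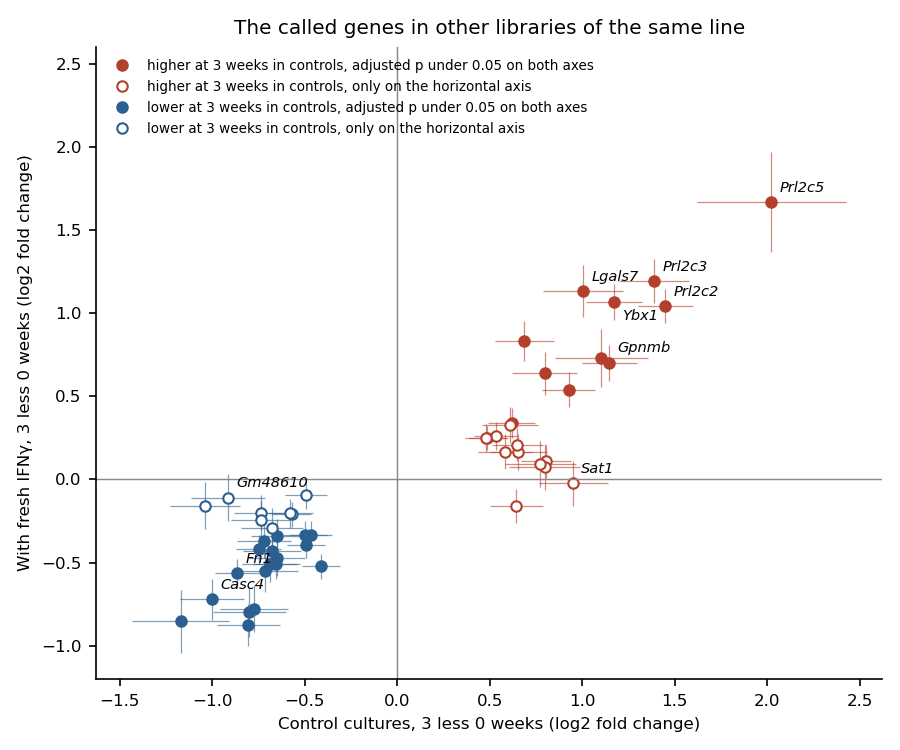
Log2 fold change from 0 to 3 weeks in control cultures (horizontal axis) and in cultures given fresh IFNγ (vertical axis) for 49 of the 50 called genes, with Atp13a4 left out; bars are standard errors from edgeR. Filled points passed the test on both axes, 12 of the 23 higher genes drawn and 18 of the 26 lower genes.

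With fresh IFNγ the proliferins, Ybx1 and Lgals7 were higher at 3 weeks too, and the difference in size from the controls was not tested. The log2 fold changes there were 1.04 ± 0.10 for Prl2c2, 1.19 ± 0.13 for Prl2c3, 1.67 ± 0.30 for Prl2c5, 1.07 ± 0.11 for Ybx1 and 1.13 ± 0.16 for Lgals7 (edgeR adjusted p from 8.8e-10 to 0.0003). Gpnmb was 0.70 ± 0.11, Lgals3 0.54 ± 0.11, Ccl7 0.64 ± 0.13 and Ccl2 0.34 ± 0.09 (edgeR adjusted p from 2.4e-05 to 0.017). Fn1 was −0.56 ± 0.09, Synrg −0.42 ± 0.09 and Casc4 −0.72 ± 0.12 (edgeR adjusted p from 1.9e-05 to 0.0018). For Sat1 (−0.02 ± 0.14), Cst6 (0.11 ± 0.10), Fth1 (0.21 ± 0.10), Gm48610 (−0.11 ± 0.14), Gm42432 (−0.16 ± 0.14) and Cflar (−0.21 ± 0.08) no change was detected at this depth (edgeR adjusted p from 0.087 to 0.95).

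Across the 15 YUMM2.1 groups, the means of Prl2c2 and Ybx1 were higher at each later week within every treatment, which did not hold for Gpnmb, Fn1 or Prl2c3. In cells kept in IFNγ and harvested without fresh IFNγ, Prl2c2 was 1279 ± 126 CPM (SD, n = 3) at 1 week, 1721 ± 233 CPM at 2 weeks and 2040 ± 147 CPM at 3 weeks. Ybx1 was 154 ± 8.55, 218 ± 25.0 and 279 ± 31.9 CPM in the same cultures. The ranges of neighbouring weeks did not overlap for Prl2c2 in that arm, whereas for Ybx1 weeks 2 (198 to 246 CPM) and 3 (243 to 305 CPM) did. Gpnmb was 66.7 ± 8.91 CPM at 1 week, 104 ± 14.8 CPM at 2 weeks and 113 ± 35.2 CPM at 3 weeks, and weeks 2 and 3 overlapped. Fn1 was 142 ± 15.1, 94.5 ± 4.59 and 101 ± 3.42 CPM, so that it stood lower at 2 weeks than in the control cultures of that week (152 ± 20.6 CPM). These values are descriptive, since exposure and time run together in these cultures.

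**Figure D5:**
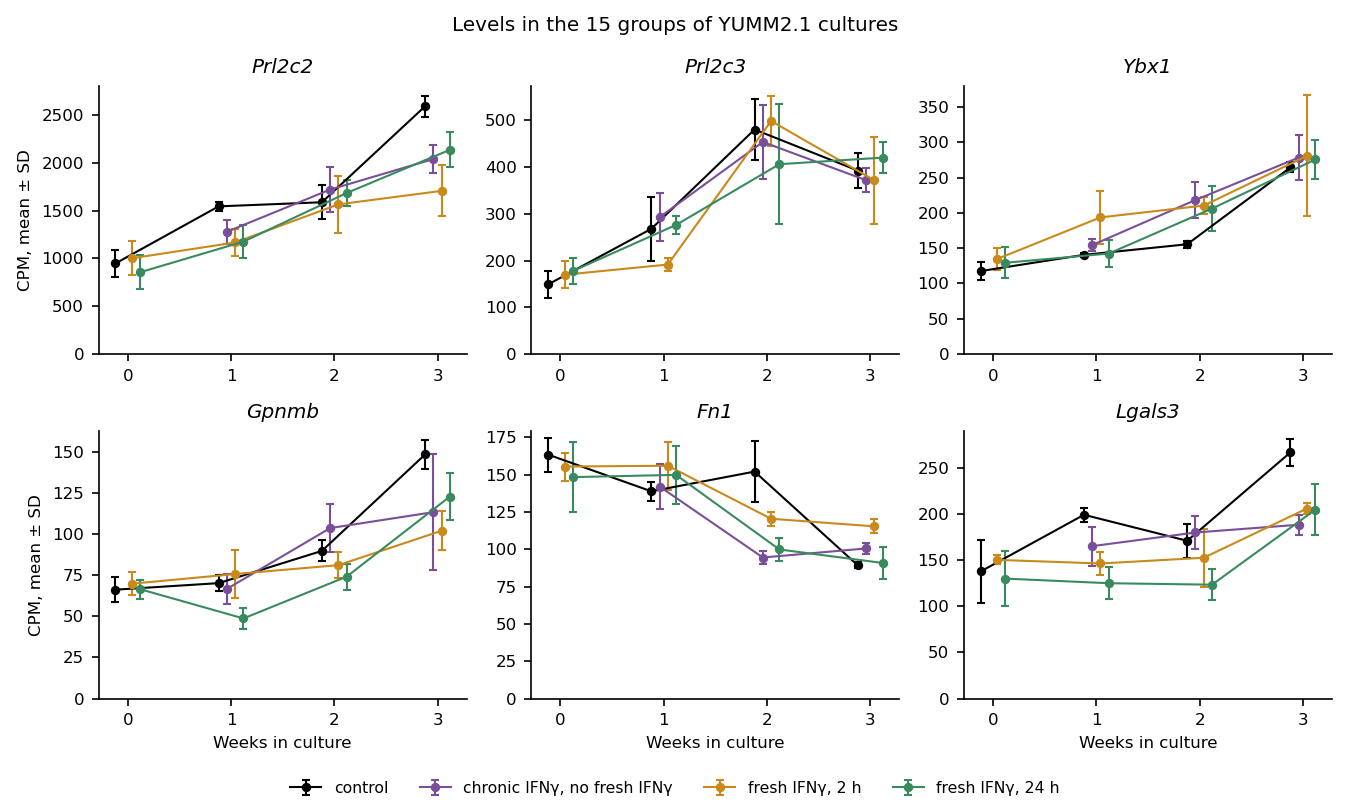
Mean level ± SD (vertical axis, CPM, from 0) of 6 genes in the 15 groups of YUMM2.1 cultures against weeks in culture (horizontal axis), with n = 3 libraries for each point and one colour for each treatment. Prl2c2 runs from 947 to 2593 CPM in the controls and from 1279 CPM at 1 week to 2040 CPM at 3 weeks in chronic IFNγ without fresh IFNγ.

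The same 3 weeks were read in control cultures of CT26. There 78 of 8516 tested genes changed (0.916%), and 16 of the 24 higher and 25 of the 26 lower genes were expressed enough to be tested. Of the 16, 4 were called in CT26, Gpnmb and Acot13 higher and Ybx1 and Atp5g3 lower at 3 weeks, and edgeR called none of the 25. The median log2 fold change in CT26 was 0.11 over the 16 and −0.0029 over the 25. A test of the difference between the lines was called for 156 of 9037 genes (1.73%), among them 5 of the 23 higher genes and 23 of the 26 lower genes that could be tested. The 50 genes were chosen on the same YUMM2.1 libraries, which favours a difference, so these counts are a description. Depth did not separate the CT26 groups, with 1458270 to 1677329 counts at 0 weeks and 1318011 to 2183005 at 3 weeks, which differs from YUMM2.1.

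Gpnmb and Ybx1 stood apart in this comparison. Gpnmb rose in CT26 too, from 15.9 ± 2.05 CPM (SD, n = 3) to 44.5 ± 4.20 CPM, with a log2 fold change of 1.4975 (edgeR adjusted p = 2.9e-05), and the difference between the lines was −0.38 (edgeR adjusted p = 0.43). Ybx1 moved the other way in CT26, from 329 ± 26.1 CPM to 127 ± 2.19 CPM, with a log2 fold change of −1.38 (edgeR adjusted p = 2.1e-05). The difference between the lines was 2.54 ± 0.12 (edgeR adjusted p = 4.4e-15). In CT26, Fn1 went from 855 ± 41.9 CPM to 757 ± 68.4 CPM, where no change was detected (edgeR adjusted p = 0.48), and the lines differed by −0.70 ± 0.13 (edgeR adjusted p = 0.0033).

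Most pathways read from fixed gene lists showed no called member between 0 and 3 weeks in edgeR. Over all tested genes, 8.33% had an unadjusted p under 0.05, and the number of genes at that level is given in parentheses. None passed of 42 genes of DNA replication and mitosis (median log2 fold change −0.06, 3 genes under 0.05), of 21 G1 regulators and p53 targets (0.07, 1 gene), of 26 genes of glycolysis and hypoxia (0.10, 4 genes) or of 30 genes of sterol and fatty acid synthesis (0.10, 4 genes). None passed of 25 genes of the AP-1, EGR and MAPK feedback list (0.16, 1 gene), of 15 YAP and serum response targets (0.03, 2 genes) or of 6 Wnt targets (0.12, 0 genes). DESeq2 called no member of these 7 lists or of the matrix list either, in which 3 genes were under 0.05. Of 39 genes of ER stress (−0.10, 7 genes) and 18 TGFβ and BMP targets (0.15, 1 gene) edgeR called none and DESeq2 1 each, Pck2 and Tgfb1. Examples at high level were Gapdh with a log2 fold change of 0.35 and Ldha with −0.03 for glycolysis, Ccnd1 with 0.10 and Cdk4 with 0.04 for G1, and Tuba1b with −0.07 for mitosis.

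In the controls, the ribosomal and mitochondrial lists stood slightly above the median of all genes. None of the 62 cytosolic ribosomal protein genes passed in edgeR (median 0.14, 9 genes under 0.05), Rps23 being nearest with 0.66 (edgeR adjusted p = 0.052), which DESeq2 called. None of the 15 mitochondrially encoded genes passed (0.17, 6 genes), and DESeq2 called mt-Co2 and mt-Co3. Of 51 nuclear genes of the respiratory chain and ATP synthase, Atp5g3 rose and the median was 0.14, with 12 genes under 0.05. With fresh IFNγ, the medians of these lists, in this order, were −0.21, −0.08 and 0.02, against 0.03 over all genes tested.

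Of the lineage lists, Gpnmb rose among 9 tested genes of melanocyte lineage and pigmentation (median 0.08, 3 genes at an unadjusted p under 0.05) and Fn1 fell among 22 tested genes of the dedifferentiated and neural crest-like list (median 0.13, 6 genes). Sox10 was 0.60 and Erbb3, a neuregulin receptor, 0.73 on the log2 scale without passing (edgeR adjusted p = 0.63 and 0.47), and Mc1r, the melanocortin receptor, was −0.94 (edgeR adjusted p = 0.12). Vim, S100a4 and Sparc, the members of the second list with the highest level, had log2 fold changes of 0.18, 0.45 and 0.09 and were not called by edgeR, while DESeq2 called S100a4. None of 42 tested interferon-stimulated genes passed in edgeR or DESeq2, with 7 at an unadjusted p under 0.05 and a list median of 0.30. Its members of highest level moved in opposite directions without passing, with 0.44 for B2m, the light chain of MHC class I, and −0.31 for Xaf1 (edgeR adjusted p = 0.35 for both).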

How the data were processed

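RNA was read by 3′ digital gene expression in 90 libraries, of which the 6 untreated YUMM2.1 libraries of 0 and 3 weeks carry the comparison. The paper reports dropping outlier samples, 1 of YUMM2.1 and more of CT26, before its own analyses, and its methods do not name them. All 90 libraries were kept here. The authors deposited raw counts per gene for all samples in a single table; the submitters' processing notes name Salmon 0.13.1 and mm10, and the gene annotation release and the use of molecular identifiers are not given in the sources used here. Symbols were matched for 53668 of 53697 gene identifiers. Counts were tested with edgeR 4.0.16 in R 4.3.3 (TMM scaling, filterByExpr, quasi-likelihood F test, Benjamini-Hochberg adjustment over all genes tested, threshold 0.05), with 1 fit over the 45 libraries of a line and contrasts between groups, and 1 fit over the control libraries of both lines for the difference between them. Standard errors were derived from the fold change and the F statistic. CPM are counts scaled by the TMM-adjusted library totals, not by the library totals alone. Depth was 812316 to 3161276 counts over the 12 control libraries. The floor of 3 counts used for Atp13a4 covers counting error only, while SE and SD include the spread between libraries.

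Groups came from the sample labels. Members and lists were chosen with earlier results of these data known. Genes were named by rule: the 15 of largest log2 fold change in each direction among called genes whose groups do not overlap, called members of the fixed lists, up to 5 further trend genes in each direction, and up to 2 of the most abundant uncalled members of each list; other names were chosen after their values were seen. Alternatives were DESeq2 1.42.0, library totals as scaling, no filter, a replicate block, a fit of the compared groups alone and each replicate left out; single libraries left out, the depth covariate and the comparison of 3 weeks with 1 week were added after seeing the data. No pair of replicates agreed within sampling noise (0 of 90 pairs). Tested on simulated data for 3 weeks against 0 weeks (9274 genes), the edgeR test recovered 41.4% of 99 genes changed by 1 on the log2 scale and 85.9% of 99 changed by 2, with 5 false calls. Words of 31 bases were taken from the last 500 bases of GENCODE transcripts. Figures were drawn with matplotlib 3.10.9.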

Additional observations from a re-analysis of the deposited data

Results flagged for a closer look

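The change from 0 to 3 weeks in control cultures differed between YUMM2.1 and CT26 for 28 of the 50 genes, by an edgeR interaction contrast (adjusted p under the threshold of 0.05), against 156 of all 9037 genes tested (1.73%). The 50 genes were chosen for their change in the same 6 YUMM2.1 libraries, which favours a difference, so the 28 are not independent evidence that the lines differ. Values are the log2 fold change in YUMM2.1 less that in CT26, n = 3 libraries in each of the 4 groups. Of the higher genes, the difference was 2.54 for Ybx1, 2.16 for Psip1, 0.95 for Lgals7, 0.58 for Fth1 and 0.89 for Atp5g3. Ybx1 fell in CT26, from 329 to 127 CPM, while it rose in YUMM2.1. In CT26, Psip1 went from 34.6 to 16.9 CPM without passing (log2 fold change −1.05, edgeR adjusted p = 0.052), and its call in YUMM2.1 was lost in 5 of the 6 comparisons that left out a library.

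Of the lower genes, the difference was −0.44 for Washc4, −0.49 for Exosc2, −0.55 for 1700120C14Rik, −0.56 for Unc13d, −0.44 for Snf8, −0.60 for Cflar, −0.82 for Slfn5, −0.73 for Cxcr2, −0.77 for Pcgf2, −0.66 for Rep15, −0.86 for Gm45223, −0.65 for Gm18283, −0.79 for Pbld1, −0.76 for Nmrk1, −0.73 for Tspan33, −0.58 for Gm38299, −0.73 for Nol12, −0.66 for Synrg, −0.77 for Brms1l, −0.73 for 4930527F14Rik, −0.70 for Fn1, −1.07 for Gm42432 and −1.12 for Ppip5k1. No gene of this second set was called in CT26 itself by edgeR. Total counts were higher in every YUMM2.1 control library of 3 weeks than in those of 0 weeks and overlapped between the weeks in CT26, and the part of depth in these differences was not tested.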

How the results depend on the processing

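The direction of the 52 named genes reversed under none of the 15 alternatives (777 values): 477 stayed on the same side of the threshold, 299 no longer passed and 1, Cox8a without a filter, newly passed. Of the named genes, 50 were chosen as called in the same libraries, with groups that did not overlap. That no direction reversed was therefore close to fixed in advance. The number of genes changed at 3 weeks moved from 50 to 11 with a log2 fold change of at least 1, 109 with DESeq2 (38 higher, 71 lower; no adjusted p for 2 of the 50), 107 with library totals (33 and 74), 96 without a filter (52 and 44), 120 with only the compared groups in the fit (34 and 86), 23 with the depth covariate and 8, 12 and 34 without replicate 3, 2 and 1; without single libraries it was 14 to 45. In the same order of DESeq2, library totals, no filter and compared groups only, the counts were 131, 53, 108 and 82 at 1 week (7 as reported), 5, 5, 17 and 4 at 2 weeks (2), 66, 50, 90 and 316 between weeks 2 and 3 (10), and 51, 51, 50 and 67 for the trend (24). Library totals gave 15 higher and 38 lower genes at 1 week, 13 and 37 between weeks 2 and 3, and 23 and 28 for the trend. With the depth covariate, edgeR called 0 genes at 1 week, 540 having an unadjusted p under 0.05, and 3 between weeks 2 and 3. Leaving out a replicate number gave 0 genes at 1 week, 1 at 2 weeks, 0 to 7 between weeks 2 and 3 and 7 to 11 for the trend. With fresh IFNγ the count of 600 became 260 with the compared groups only and 162, 234 and 255 without a replicate, and library totals moved the split to 420 higher and 172 lower, with a median of all genes of 0.11. In CT26, 78 became 126 with DESeq2, 112 with library totals (47 higher, 65 lower, against 49 and 29), 133 without a filter, 220 with the compared groups only and 24, 27 and 34 without a replicate. The difference between lines, 156 genes, became 272 with DESeq2 and 20, 39 and 130 without a replicate, with splits of 78 higher and 70 lower under library totals and 134 and 67 without a filter. The causes were not tested.

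Same-numbered libraries of 0 and 3 weeks had deviations correlated at 0.0022 to 0.0497, and differently numbered ones at −0.0729 to 0.0478. No pairing by replicate number was seen, but such values cannot decide whether same-numbered cultures were handled together. With a replicate block, 50 genes were called at 3 weeks, 46 of them among the original 50, and 15 at 1 week, 2 at 2 weeks, 11 between weeks 2 and 3, 24 for the trend, 592 with fresh IFNγ, 81 in CT26 and 170 for the difference between lines. Depth limits small changes: in simulated data for the comparison of 3 weeks with 0 weeks, 41.4% of changes of 1 on the log2 scale were called, and 79.6% among genes above the median expression.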
